A study of Mus musculus with 65 samples.

Results

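The data described here are 6 mammary glands of wild-type mice, 3 taken 1 week and 3 taken 4 weeks after the animals received 10 cGy of ionizing radiation. They were chosen by their labelled genotype, dose and time, and are 6 of the 65 arrays of the series. The other arrays used are 3 sham-irradiated wild-type glands, all taken at 1 week, and 8 glands of Tgfb1 heterozygous littermates: 3 sham at 1 week, 2 at 1 week after 10 cGy and 3 at 4 weeks after 10 cGy. The remaining arrays of the series are tumours and were not used here. All mice were Balb/c and 10 weeks old at the outset. All had received a mixture of estrogen and progesterone shortly before irradiation to bring their estrus cycles into step. The rear portion of each inguinal gland was used for RNA once its lymph node had been cut out, so each array averages epithelium, fat, stroma and immune cells. The heterozygotes carry 1 working copy of Tgfb1 in every cell, not in a chosen cell type.

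The mammary gland of a young virgin mouse is a tree of ducts in a fat pad. Luminal cells, some of them carrying estrogen and progesterone receptors, line the ducts. Contractile basal cells surround them and rest on a basement membrane of laminin and type IV collagen, with macrophages and other immune cells close by. Ionizing radiation activates p53, which switches on the cell cycle inhibitor p21 (Cdkn1a), and it releases TGF-beta, a growth inhibitor that also restrains immune cells, from its latent form. The contrast of 4 weeks with 1 week asks which messenger RNA levels differ between an early and a later time after the same low dose. No sham gland of 4 weeks was analysed here. Time since the dose, 3 weeks of additional age and time since the hormone injection therefore cannot be told apart.

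Values are log2 levels of 1 probe set per gene, and a difference is the mean at 4 weeks minus the mean at 1 week, so that a difference of 1 is a doubling. The standard error (SE) and p come from limma, fitted to all 17 glands with 6 group means. Of 12945 genes tested, 0 passed an adjusted p of 0.05 (limma, Benjamini-Hochberg), and the smallest adjusted p was 0.188, for Capn6. At an unadjusted p under 0.05 there were 1308 genes, 10.1% of those tested, where chance gives 647. Of these, 821 were higher (6.34%) and 487 lower (3.76%) at 4 weeks. The 3 arrays of one time did not overlap the 3 of the other in 1274 genes that were higher (9.84%) and 589 that were lower (4.55%). Because no gene passed, every gene below is described by its values, and no single one is called changed. The labels do not say whether repeats are separate animals, so the p-values may measure a spread that is partly technical.

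The balance of higher and lower genes depended on scaling. The median difference over all tested genes was 0.04, 58.5% of them were higher at 4 weeks, the share against which the counts of higher and lower members below are to be read, and 62.8% of the genes at an unadjusted p under 0.05 were higher. After quantile normalization that median was 0.01, and 599 of 1189 such genes (50.4%) were higher. With the 6 arrays alone 72.1% of 1026 were higher, and with no filter on dim genes 51.4% of 1737 were. Leaving out 4-week array 3 left 598 genes at an unadjusted p under 0.05.

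**Figure D1:**
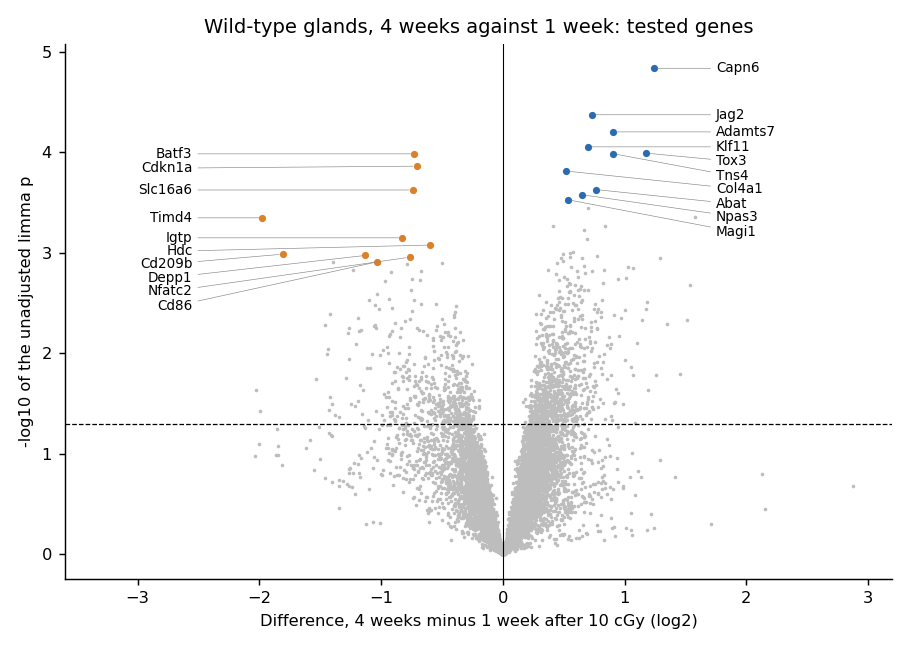
Each point is 1 of 12945 tested genes in wild-type glands, with the difference between 4 weeks and 1 week after 10 cGy (log2) on the x axis and -log10 of the unadjusted limma p on the y axis. The dashed line marks p = 0.05, and the named points are the 10 higher (blue) and 10 lower (orange) genes with the smallest p among those whose arrays did not overlap. Among the named points Capn6 lies highest on the right and Batf3 and Cdkn1a highest on the left.

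Individual glands carried different amounts of neighbouring tissue. The B cell and lymph node markers (mean of 5 genes) stood at 9.16, 4.84 and 4.97 in the 1-week arrays and 4.60, 5.38 and 4.54 in the 4-week arrays. Thus 1-week array 1 was far above the other 5, although the lymph node had been removed. Among the wild-type sham glands array 1, at 6.95, was also lymph-node-rich. The skeletal muscle markers (mean of 15 genes) stood at 4.50, 4.43 and 9.26 at 1 week and 4.32, 7.12 and 9.72 at 4 weeks. Muscle RNA was high in 1 array of each time, intermediate in 4-week array 2, and also high in 2 of the 3 sham glands. The proliferation genes (mean of 21) stood at 6.83, 8.43 and 7.67 at 1 week and 7.80, 8.05 and 8.83 at 4 weeks, with 1-week array 1 lowest and 4-week array 3 highest. Ductal, basal and fat markers were strong in all 6 glands: luminal Krt8 was 12.43, 12.38 and 12.37 at 1 week and 12.65, 12.59 and 12.84 at 4 weeks, and the adipocyte hormone Adipoq was 13.43, 13.20 and 13.19 and 13.37, 13.22 and 13.26.

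**Figure D2:**
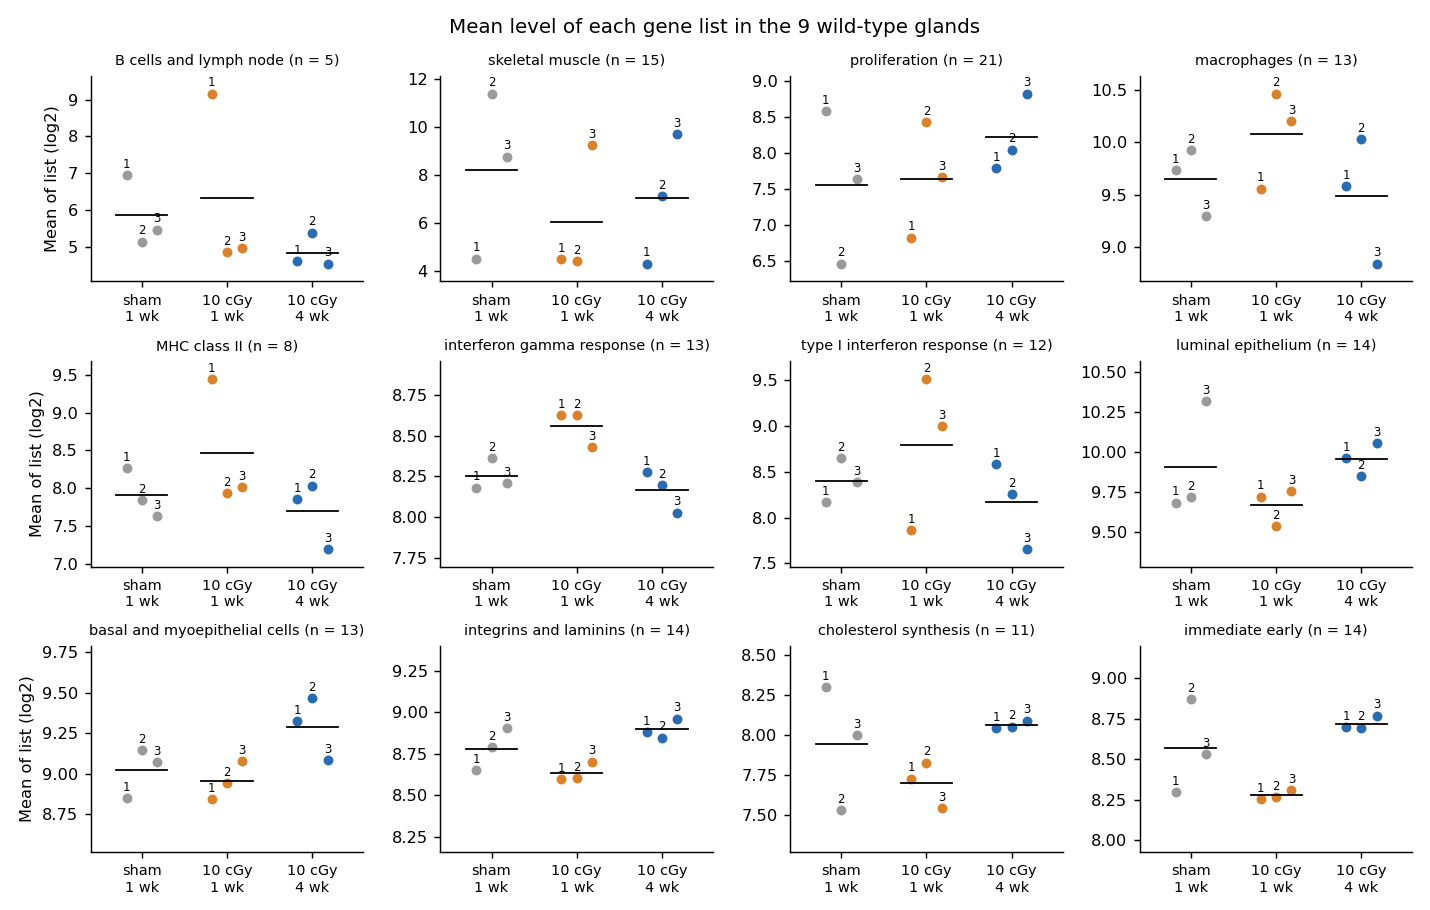
Each panel gives the mean log2 level of the tested genes of 1 list in the 9 wild-type glands (grey, sham at 1 week; orange, 1 week after 10 cGy; blue, 4 weeks after 10 cGy). Numbers are the array numbers, bars the group means, and the y axes differ between panels. Array 1 of the 1-week group is highest for lymph node markers, followed by sham array 1, whereas the immediate early and cholesterol synthesis lists separate the irradiated groups.

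The 10 higher genes with the smallest p among those without overlap began with Capn6. Capn6, a calpain-family protein without protease activity that binds microtubules, was 6.28, 6.23 and 6.41 at 1 week and 7.22, 7.95 and 7.46 at 4 weeks. All 3 later glands lay above all 3 earlier ones, by 1.24 (SE 0.19) or 2.36-fold, and the sham glands (6.43, 6.51 and 6.84) lay between. Jag2, a transmembrane ligand of Notch receptors, was 6.20, 6.23 and 6.00 at 1 week and 6.90, 6.80 and 6.94 at 4 weeks, a difference of 0.74 (SE 0.13). Its arrays were tight within each time and again the sham glands (6.30, 6.57 and 6.51) fell between. A second probe set of Jag2, of similar mean level (6.35 against 6.46), differed by 0.36, and the mean of both gave 0.55. Adamts7, a secreted metalloprotease, was 4.70, 4.85 and 4.99 at 1 week against 5.73, 5.73 and 5.78 at 4 weeks, a difference of 0.90 (SE 0.16). Klf11, a zinc finger repressor first described as inducible by TGF-beta, was 7.33, 7.32 and 7.35 against 7.89, 8.11 and 8.11, a difference of 0.70 (SE 0.13). Its 3 arrays at 1 week spanned almost nothing and all lay under the sham glands (7.65, 7.96 and 7.78).

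The rest of the top 10 showed the same separation. Tox3, a chromatin protein of the HMG-box family, differed by 1.18 (SE 0.22), from 4.77, 4.59 and 4.69 to 5.69, 5.90 and 5.99. Tns4, an adaptor of integrin adhesions, differed by 0.91 (SE 0.17), from 5.53, 5.86 and 5.66 to 6.34, 6.66 and 6.77. In both genes no 4-week array reached down to a 1-week array. Abat, the enzyme that breaks down GABA, was higher by 0.77 (SE 0.16), the transcription factor Npas3 by 0.65 (SE 0.14), and Magi1, a scaffold of epithelial junctions, by 0.54 (SE 0.11). For Capn6, Abat and Magi1 the mean of all probe sets gave 0.78, 0.34 and 0.32, so the size depended on the probe set used. The limma adjusted p of these 10 genes was 0.188 to 0.295.

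Among the genes lower at 4 weeks, Cdkn1a is the best known target of p53. It was 8.76, 8.70 and 8.50 in the 1-week glands and 8.13, 7.98 and 7.72 in the 4-week glands, against 8.06, 8.12 and 8.27 in sham glands. All 3 glands at 1 week were above every sham gland, and all 3 at 4 weeks were below every gland at 1 week. The difference between times was -0.71 (SE 0.14), 1.64-fold lower, with an unadjusted p of 1.37e-04 and a limma adjusted p of 0.22. It stayed between -0.80 and -0.60 under every alternative run, leaving out any of the 6 arrays included. A second probe set of Cdkn1a differed by -0.58.

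Batf3, a transcription factor needed for cross-presenting dendritic cells, was 5.95, 6.41 and 6.15 at 1 week and 5.38, 5.71 and 5.23 at 4 weeks, a difference of -0.73 (SE 0.14). Timd4, a receptor with which resident macrophages bind dying cells, was 8.97, 8.31 and 7.37 at 1 week and 6.38, 6.86 and 5.49 at 4 weeks, a difference of -1.98 (SE 0.44) or 3.93-fold. Cd209b, a lectin of tissue macrophages, was 9.68, 8.38 and 8.08 against 7.10, 7.33 and 6.29, a difference of -1.81 (SE 0.44). In each of the 3 genes every 1-week gland exceeded every 4-week gland, and for Timd4 and Cd209b it was 1-week array 1, the gland with lymph node markers, that was highest. Without that array the differences were -1.60 for Timd4 and -1.33 for Cd209b. Cd86, a costimulatory molecule of antigen-presenting cells, was lower by 1.03. Hdc, which makes histamine, was lower by 0.60, and the monocarboxylate transporter family member Slc16a6 by 0.74. Nfatc2, a calcium-regulated transcription factor of lymphocytes, differed by -0.77 (SE 0.19) at its brightest probe set and by -0.22 over all its probe sets.

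Genes of the interferon gamma response were lower at 4 weeks. Interferon gamma, a cytokine of T and NK cells, induces Irf1, guanylate-binding and immunity-related GTPases, and the immunoproteasome. Of 13 tested members, 12 were lower at 4 weeks and 7 had an unadjusted p under 0.05, against 3.76% of all genes in that direction. In the same number, 7, the groups did not overlap, against 4.55% of all genes, and 0 passed the adjusted threshold. The median was -0.44, against 0.04 for all genes, and it stayed between -0.49 and -0.34 over all alternatives. Quantile normalization and median centring also put 12 of 13 lower. The mean of the list was 8.63, 8.63 and 8.43 at 1 week, 8.28, 8.19 and 8.03 at 4 weeks and 8.18, 8.36 and 8.21 in sham glands, so every 1-week gland was above every other wild-type gland. Without the muscle-rich arrays all 13 members were lower, but 2 kept an unadjusted p under 0.05.

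Promoters of 3 of the GTPase genes of this list, Igtp, Irgm2 and Irgm1, are printed here because most members were lower at 4 weeks and these genes show the motifs most plainly. The sequences are from RefSeq, mouse assembly GRCm38.p6, which is a C57BL/6J genome and not that of the Balb/c mice used. Each is the 120 bases before the annotated start, written 5′ to 3′ on the strand of the gene. Capitals mark the interferon-stimulated response element core, which is GAAA, any 2 bases and GAAA again, and the gamma-activated site, which is TTC, any 3 bases and GAA. Both were searched on both strands.
Igtp, chr11:58199436-58199555, plus strand: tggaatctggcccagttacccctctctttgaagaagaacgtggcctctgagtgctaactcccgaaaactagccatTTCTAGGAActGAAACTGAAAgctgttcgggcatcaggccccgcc
Irgm2, chr11:58214857-58214976, plus strand: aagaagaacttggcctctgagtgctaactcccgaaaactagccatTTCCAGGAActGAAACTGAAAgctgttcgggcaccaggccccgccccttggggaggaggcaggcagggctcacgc
Irgm1, chr11:48871421-48871540, minus strand: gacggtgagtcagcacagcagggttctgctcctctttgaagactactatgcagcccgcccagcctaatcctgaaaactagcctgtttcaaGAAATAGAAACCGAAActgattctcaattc

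In Igtp a gamma-activated site lies at -45 to -37 and a response element core at -34 to -25, counted back from the start. Irgm2 holds the same pair further upstream, at -75 to -67 and -64 to -55. Irgm1 holds 2 overlapping response element cores, at -30 to -21 and -24 to -15. The response element core was found in 1.22% of 32851 promoter windows of this length and the gamma-activated site in 3.15%. Of the 11 list members with a window in the table, 5 held the first and 4 the second. A match of letters is a description of the sequence and not a measured binding site.

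Igtp itself was 9.09, 9.29 and 8.87 at 1 week, 8.48, 8.30 and 7.98 at 4 weeks and 8.46, 8.63 and 8.54 in sham glands. The 1-week glands formed a separate upper group, and the difference between times was -0.83 (SE 0.19). Irgm1 was 8.11, 9.16 and 8.57 at 1 week and 8.04, 8.04 and 7.56 at 4 weeks, a difference of -0.73 (SE 0.26). Irgm2 differed by -0.52 (SE 0.23), and its 2 times overlapped. Without 1-week array 2 Irgm1 differed by -0.46 and Irgm2 by -0.21. The immunoproteasome subunit Psmb8 was 10.29, 10.14 and 10.14 against 9.68, 10.01 and 9.44, a difference of -0.48 (SE 0.15), and its partner Psmb9 differed by -0.49 (SE 0.16). Both subunits trim peptides for MHC class I, and in both the times did not overlap. Irf1, the transcription factor at the head of the response, was 9.38, 8.96 and 9.33 against 8.87, 8.80 and 8.69, a difference of -0.44 (SE 0.14). The peptide transporter Tap1 differed by -0.39 (SE 0.11) at its bright probe set, whereas the mean of its 4 probe sets, 3 of them dim, gave 0.02. Irgm1, Irgm2 and Psmb9 were chosen for naming after their values were seen.

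MHC class II genes, which present peptides to CD4 T cells and are themselves inducible by interferon gamma, were lower in 8 of 8 tested members, and 5 had an unadjusted p under 0.05 (background 3.76%). The median was -0.67. The groups did not overlap in 2 members (background 4.55%). H2-Eb1 was 11.51, 10.64 and 10.73 at 1 week and 10.54, 10.63 and 9.72 at 4 weeks, a difference of -0.66 (SE 0.26). The invariant chain Cd74 was 10.62, 9.86 and 9.74 and 9.69, 9.66 and 8.86, a difference of -0.67 (SE 0.25). H2-Aa was 12.26, 11.41 and 11.83 and 11.41, 11.48 and 10.15, a difference of -0.82 (SE 0.30), and H2-Ab1 differed by -0.55 (SE 0.23). The times of H2-Eb1 all but touched. In all 4 genes 1-week array 1 was highest and 4-week array 3 lowest, and for H2-Aa and H2-Ab1 the times overlapped. Without 1-week array 1 the differences were -0.39 for H2-Eb1, -0.40 for Cd74 and -0.33 for H2-Ab1, and without the muscle-rich arrays that of H2-Aa was -0.39. The list median was -0.36 without 1-week array 1 and -0.39 without 4-week array 3. Without 1-week array 1, 7 of 8 members were still lower and 0 had an unadjusted p under 0.05.

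The promoters of H2-Aa and H2-Eb1 are shown, from the same assembly, because class II genes share an upstream Y box. Capitals mark its core, ATTGG, on either strand.
H2-Aa, chr17:34287824-34287943, minus strand: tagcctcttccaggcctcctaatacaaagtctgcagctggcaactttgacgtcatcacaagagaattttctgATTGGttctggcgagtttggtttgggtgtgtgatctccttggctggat
H2-Eb1, chr17:34305747-34305866, plus strand: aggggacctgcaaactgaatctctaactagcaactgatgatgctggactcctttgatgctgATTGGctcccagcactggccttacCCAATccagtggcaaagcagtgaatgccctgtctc

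H2-Aa holds the core at -48 to -44, and H2-Eb1 holds it at -59 to -55 and on the other strand at -35 to -31. The 5 letters are common: 21.3% of promoter windows held them, as did 4 of the 5 class II members with a window. Neither this nor the interferon motifs was measured for binding here.

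Type I interferon genes, the antiviral set that includes Mx1, Irf7, Usp18 and Bst2, were lower in 12 of 12 members with a median of -0.70, but 0 had an unadjusted p under 0.05 and in 0 did the times separate. Mx1 was 6.52, 8.32 and 7.36 at 1 week and 6.89, 6.29 and 5.98 at 4 weeks, a difference of -1.02 (SE 0.49), or -0.56 without 1-week array 2. Bst2, which tethers virus particles, was 7.91, 8.94 and 8.83 and 7.96, 8.44 and 6.71, a difference of -0.86 (SE 0.41), or -0.22 without the muscle-rich arrays. Array 1 was the low gland of the 1-week group in both genes and overlapped the 4-week glands. The list mean was 7.86, 9.52 and 9.00 at 1 week and 8.59, 8.26 and 7.66 at 4 weeks. The median was -1.13 without 1-week array 1, -0.32 without 1-week array 2 and -0.32 without 4-week array 3. It was -0.22 without the muscle-rich arrays, with 2 of 12 members higher. Without 1-week array 1 all 12 members had an unadjusted p under 0.05, where 1442 of all 12945 genes did. Without 4-week array 3, 0 of the 12 had such a p, where 598 of all genes did.

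Markers of immune cells were lower at 4 weeks as well. In whole tissue, fewer cells of a type and less RNA per cell cannot be told apart. Of 13 macrophage markers, 12 were lower, with a median of -0.68, and 3 had an unadjusted p under 0.05 (background 3.76%). Lysozyme Lyz2 was 12.53, 12.86 and 12.61 at 1 week and 11.89, 12.37 and 11.35 at 4 weeks, a difference of -0.79 (SE 0.28) with no overlap. The growth factor receptor Csf1r differed by -0.61 (SE 0.25) and complement C1qa by -0.72 (SE 0.32), and both overlapped, whereas the surface marker Adgre1 differed by -0.44 (SE 0.35). The macrophage list mean was 9.56, 10.46 and 10.20 at 1 week and 9.58, 10.03 and 8.84 at 4 weeks, with 9.73, 9.93 and 9.29 in sham glands. The median was -0.34 without 4-week array 3, and -0.27 without the muscle-rich arrays. Without 1-week array 1, the 1-week gland lowest in macrophage markers and highest in lymph node markers, 10 of the 13 had an unadjusted p under 0.05, where 1442 of all 12945 genes did. Without 4-week array 3, the gland lowest in these markers, 0 of the 13 had such a p, where 598 of all genes did. Without the muscle-rich arrays the differences were -0.24 for Csf1r, -0.35 for C1qa and -0.10 for Adgre1.

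Lymphoid medians rested largely on 1 gland. Dendritic cell markers were lower in 7 of 8 members with a median of -0.49, T and NK cell markers in 11 of 12 with -0.66, and B cell and lymph node markers in 5 of 5 with -1.35. Without 1-week array 1 these medians were -0.09, -0.23 and -0.05. The dendritic median was also -0.25 without 4-week array 3, and the B cell median -2.24 without 1-week array 2. The follicular chemokine Cxcl13 was 10.41, 6.52 and 6.84 at 1 week and 5.67, 6.27 and 5.84 at 4 weeks, and the joining chain Jchain of secreted antibodies 9.71, 5.33 and 6.65 and 4.65, 5.82 and 5.14. Both sets show a single very high gland, without which the differences were -0.75 and -0.79. Cd3e, a subunit of the T cell receptor complex, was 6.55, 5.93 and 5.79 and 5.65, 5.75 and 5.48, without overlap, and differed by -0.46, or -0.23 without that gland. Cd79a was under the level filter and had 5.87, 3.38 and 3.85 at 1 week and 3.83, 3.86 and 3.60 at 4 weeks. Cd8a, the coreceptor of cytotoxic T cells, was 4.74, 4.68 and 4.96 at 1 week and 4.51, 4.38 and 3.97 at 4 weeks, a difference of -0.51 (SE 0.22) that was -0.53 without array 1 and -0.27 without the muscle-rich arrays. This probe set was dim, with a mean of 4.56 over the 17 glands against a level filter of 4.15. The other Cd8a probe sets, all dimmer, differed by -0.87, -1.09, -1.22 and -0.38.

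Neutrophil and mast cell markers were few. Of 5 neutrophil markers 4 were lower, led by the calgranulin S100a8, which was 5.64, 6.44 and 5.76 at 1 week and 4.81, 5.48 and 5.00 at 4 weeks, a difference of -0.85 (SE 0.29) with no overlap. Of 6 mast cell markers 5 were lower, with a median of -0.34. That median was -0.15 without 1-week array 3, -0.53 without 4-week array 2 and 0.00 without 4-week array 3, and 0.15 without the muscle-rich arrays. Chemokines were lower in 10 of 13 members with a median of -0.32, which was -0.05 without 1-week array 2, -0.21 without 4-week array 1, -0.49 without 4-week array 2 and -0.18 without 4-week array 3. Cxcl12, a stromal chemokine that holds immune and stem cells in place, was 10.33, 10.50 and 10.39 at 1 week and 10.08, 10.20 and 9.44 at 4 weeks, a difference of -0.50 (SE 0.21). The monocyte attractant Ccl8 was 10.75, 12.25 and 12.07 and 11.31, 11.20 and 9.60, a difference of -0.98 (SE 0.45) with overlap. Without the muscle-rich arrays Cxcl12 differed by -0.28 and Ccl8 by -0.24, and over all its probe sets Cxcl12 differed by -0.24.

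Epithelial markers stood higher at 4 weeks. All 14 luminal markers were higher, 13 after quantile normalization or median centring, with a median of 0.26. In 7 the times did not overlap (background 9.84%), and 3 had an unadjusted p under 0.05 (background 6.34%). E-cadherin Cdh1, the adhesion protein of epithelial junctions, was 10.25, 10.20 and 10.15 at 1 week and 10.49, 10.62 and 10.91 at 4 weeks, a difference of 0.47 (SE 0.17). Ehf, an epithelial ETS transcription factor, was 9.71, 9.58 and 9.71 and 10.49, 10.36 and 10.36, a difference of 0.74 (SE 0.32), or 0.46 over all its probe sets. The mucin Muc1 differed by 0.51 (SE 0.23), and the keratin Krt8 by 0.31 (SE 0.24), its 3 earlier glands being almost equal. The median lay between 0.20 and 0.34 over all alternatives. Without 1-week array 1 there was 1 member at an unadjusted p under 0.05, where 1442 of all 12945 genes had such a p. Without 4-week array 3 there was also 1, where 598 did. With the muscle markers as a covariate there were 2, and with the lymph node markers 0. Leaving out the muscle-rich arrays put 12 of 14 higher. Sham glands overlapped both times: Krt8 was 12.27, 12.23 and 13.25 and Cdh1 10.23, 10.34 and 10.64 there.

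Kit, the stem cell factor receptor that marks luminal progenitors as well as mast cells, was 9.45, 9.24 and 9.20 at 1 week and 9.78, 9.84 and 10.51 at 4 weeks, a difference of 0.74 (SE 0.21). All later glands were above all earlier ones. It led a list of luminal progenitor and alveolar regulators of which 9 of 12 were higher, with a median of 0.25. The hormone receptors did not separate: Esr1, the estrogen receptor, was 9.40, 9.54 and 9.69 at 1 week and 9.84, 9.42 and 9.65 at 4 weeks, and Pgr, the progesterone receptor, 10.22, 10.24 and 10.14 and 10.19, 9.93 and 10.41. Their differences were 0.09 (SE 0.17) and -0.02 (SE 0.28). Foxa1, a partner of the estrogen receptor, was 9.60, 9.61 and 9.23 and 9.96, 9.56 and 10.72, a difference of 0.60 (SE 0.26) with overlap. Foxa1 differed by 0.86 without 4-week array 2 and by 0.15 without the muscle-rich arrays, without which Kit differed by 0.46. The estrogen target Greb1 was lower, 8.07, 8.34 and 8.55 at 1 week and 8.00, 7.42 and 6.75 at 4 weeks, -0.93 (SE 0.44) at its brightest probe set and -0.43 over all of them. Of 8 hormone-sensing markers, 5 were higher and 3 lower.

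Basal and myoepithelial markers were higher in 11 of 13 members, 10 after quantile normalization, with a median of 0.40. Trp63, the p63 transcription factor that maintains basal cells, was 7.58, 7.30 and 7.09 at 1 week and 8.21, 8.09 and 8.46 at 4 weeks, a difference of 0.93 (SE 0.36). Over all of its probe sets the difference was 0.47. The smooth muscle actin Acta2 was 11.88, 12.26 and 12.23 and 12.69, 12.69 and 12.41, a difference of 0.47 (SE 0.16), and myosin light chain kinase Mylk was 9.42, 9.59 and 9.32 and 10.05, 10.12 and 9.67, a difference of 0.50 (SE 0.22). These contractile proteins also belong to vessel walls. The keratin Krt5 was 8.01, 7.98 and 8.61 and 8.55, 8.78 and 8.20, with overlap, a difference of 0.31 (SE 0.20). The list median was 0.22 without 4-week array 2. In the fit to all glands 3 members had an unadjusted p under 0.05 (background 6.34%). Without 1-week array 1 there was 1 such member, where 1442 of all 12945 genes had such a p, and without 4-week array 3 there were 7, where 598 did. With the muscle or the lymph node markers as a covariate there were 2, and the medians were 0.37 and 0.25. Without the muscle-rich arrays the median was 0.62 and Krt5 differed by 0.67.

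The basement membrane and its receptors followed the same direction. Of 14 integrins and laminins, 13 were higher, also under both scalings, with a median of 0.22. In 7 the times did not overlap (background 9.84%) and 5 had an unadjusted p under 0.05 (background 6.34%). The type IV collagen chain Col4a1 was 11.15, 11.27 and 11.16 at 1 week, 11.67, 11.57 and 11.90 at 4 weeks and 11.38, 11.33 and 11.42 in sham glands, a difference between times of 0.52 (SE 0.10). Its partner chain Col4a2 was 10.44, 10.42 and 10.40 and 10.86, 10.81 and 10.65, a difference of 0.35 (SE 0.10). The 1-week values of both chains were tight and below all 4-week values. The laminin chain Lama3, part of the laminin on which basal cells rest, was 7.51, 7.19 and 7.44 and 8.10, 8.28 and 8.22, a difference of 0.82 (SE 0.22), or 0.41 over all its probe sets. Itga6, the integrin subunit that binds it, was 9.68, 9.49 and 9.35 and 10.19, 10.06 and 10.14, a difference of 0.62 (SE 0.20). Without 4-week array 3 or without the muscle-rich arrays, 4 members had an unadjusted p under 0.05, and without 1-week array 1 there were 5.

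**Figure D3:**
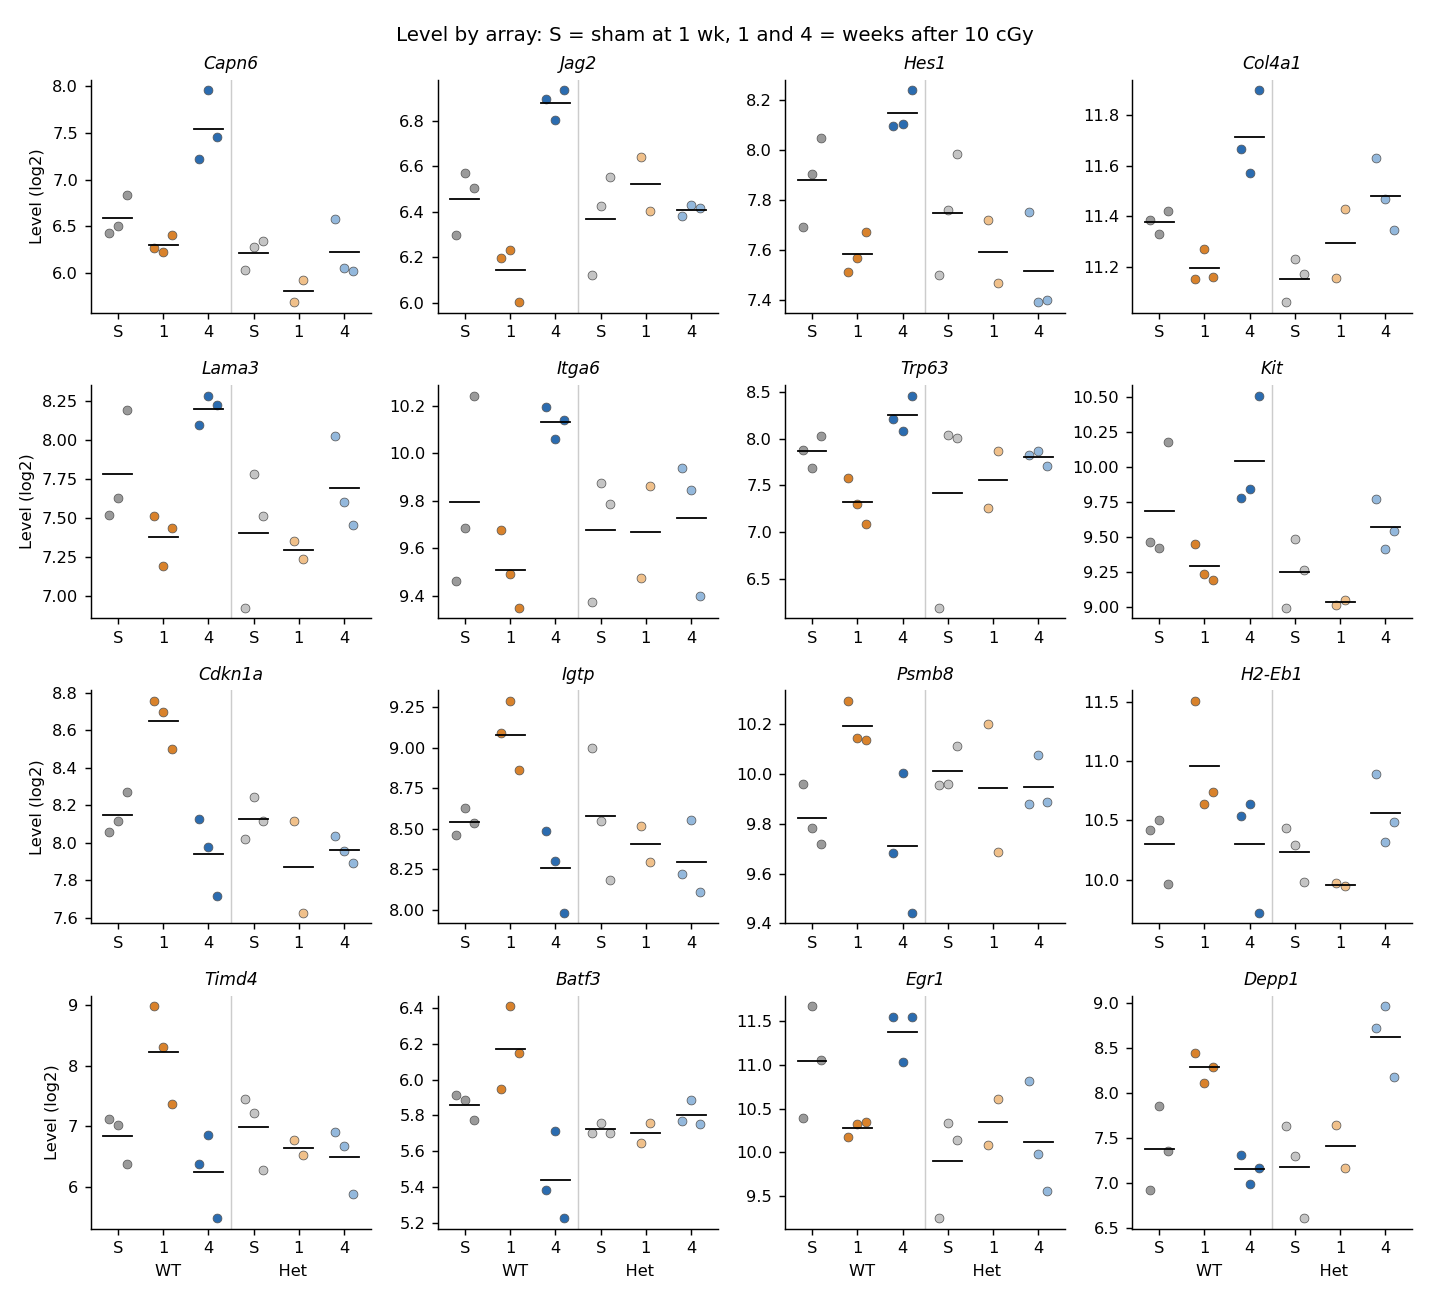
Each panel gives the log2 level of 1 gene in each of 17 glands (S, sham at 1 week; 1 and 4, weeks after 10 cGy; wild-type at left, Tgfb1 heterozygous at right), with bars for group means and y axes that differ. In wild-type glands the 1-week and 4-week points do not overlap for any of the 16 genes, which were chosen by their wild-type difference. In heterozygotes the points overlap for genes such as Jag2, Hes1 and Cdkn1a and separate the other way for Depp1. Because of that choice, less separation in heterozygotes is not evidence about genotype.

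Notch pathway genes included the ligand Jag2 and targets. Notch signalling between neighbouring cells steers luminal fate in the gland, and Hes1, Hey1 and Heyl are its direct targets. Hes1 was 7.51, 7.57 and 7.67 at 1 week and 8.10, 8.10 and 8.24 at 4 weeks, a difference of 0.56 (SE 0.14) with the later glands all above the earlier. Heyl was 4.55, 4.62 and 4.92 and 4.88, 5.35 and 5.25, a difference of 0.46 (SE 0.16), and Hey1 5.63, 6.15 and 5.80 and 6.03, 6.09 and 6.54, a difference of 0.36 (SE 0.18). The endothelial ligand Dll4 was lower, 4.84, 4.90 and 5.03 and 4.64, 4.65 and 4.62, a difference of -0.28 (SE 0.12). Hey1 differed by 0.17 without the muscle-rich arrays, and Dll4 by -0.13 over all its probe sets. Of 12 tested members 9 were higher, 3 of them at an unadjusted p under 0.05 (background 6.34%), and the median was 0.26. The median was 0.15 without 4-week array 3.

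Milk protein genes, which luminal cells express most strongly in lactation, were higher in 10 of 12 members, 9 after quantile normalization, with a median of 0.67. In 5 the times did not overlap (background 9.84%), but 0 had an unadjusted p under 0.05. The caseins varied within groups. Csn2 was 9.53, 10.63 and 10.91 at 1 week, 11.35, 12.10 and 11.87 at 4 weeks and 10.97, 12.02 and 10.80 in sham glands. Its difference of 1.41 (SE 0.97) was separated by array, though its SE was wide. That SE is pooled over all groups of the fit, heterozygous glands included. The standard deviation of Csn2 was 0.73 at 1 week and 0.38 at 4 weeks in irradiated wild-type glands. In irradiated heterozygous glands it was 3.08 and 1.73. The unadjusted p of each milk gene rests on an SE pooled in the same way. Csn3 was 9.58, 10.22 and 9.92 and 10.38, 11.07 and 10.90, a difference of 0.88 (SE 0.51), and sham glands (11.06, 11.15 and 11.21) stood near the highest later gland. Csn1s2a was 8.37, 9.08 and 11.13 and 11.20, 11.23 and 12.53, a difference of 2.13 (SE 1.43), or 1.14 over all its probe sets. Lactoferrin, Ltf, was lower by 0.56 with overlap.

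Cell cycle genes did not separate the times. All 21 proliferation genes had a higher mean at 4 weeks, also under both scalings, with a median of 0.56, yet 0 had an unadjusted p under 0.05 and in 0 did the groups part. Mki67, the Ki-67 marker of cycling cells, was 8.13, 9.58 and 9.01 at 1 week and 9.32, 9.21 and 10.30 at 4 weeks, a difference of 0.70 (SE 0.59). Its sham glands spanned 9.81, 7.26 and 9.20, a wider range than either irradiated group. The median was 0.16 without 1-week array 1, 0.99 without 1-week array 2 and 0.29 without 4-week array 3, and 0.31 without the muscle-rich arrays. Bub1b, a mitotic checkpoint kinase, differed by 0.83 (SE 0.56), or 0.48 over all its probe sets, and Mki67 by 0.31 without 1-week array 1.

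The p53 target list was split. Of its 14 tested members, Cdkn1a among them, 8 were higher and 6 lower, with a median of 0.00, and after quantile normalization 5 were higher. Aen, a nuclease, was 7.60, 7.67 and 7.79 at 1 week and 7.48, 7.42 and 7.06 at 4 weeks, a difference of -0.37 (SE 0.17), and the stress sensor Sesn2 differed by -0.28 (SE 0.11). Gadd45a, a growth arrest gene, was higher, 7.46, 7.01 and 6.55 and 7.52, 7.57 and 7.45, a difference of 0.51 (SE 0.23). DNA repair and checkpoint genes were higher in 15 of 17 members, 13 after either scaling, with a median of 0.16, which was 0.08 without 1-week array 3. The checkpoint kinase Chek2 was 6.44, 6.69 and 6.58 and 6.85, 6.93 and 6.94, a difference of 0.34 (SE 0.13) without overlap. Chek1, which is tied to the cell cycle, was 5.30, 6.61 and 5.84 and 6.70, 6.36 and 7.09, a difference of 0.80 (SE 0.51) with overlap, or 0.32 over all its probe sets. Aen differed by -0.19 and Gadd45a by 0.31 without the muscle-rich arrays.

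Of 16 TGF-beta pathway components 9 were higher and 7 lower, near the 58.5% of all genes that were higher, with a median of 0.06. Tgfb1 itself was 5.45, 5.32 and 4.69 at 1 week, 4.90, 5.31 and 4.57 at 4 weeks and 5.10, 5.04 and 5.13 in sham glands, and its difference of -0.23 (SE 0.22) was within the spread and lay between -0.46 and -0.04 over the alternatives. The signalling receptor Tgfbr2 was 10.85, 11.67 and 11.23 and 10.61, 11.02 and 10.60, a difference of -0.51 (SE 0.22) with overlap, or -0.30 without 1-week array 2. Smad3, which carries the signal to the nucleus, was 8.53, 8.42 and 8.39 and 8.88, 8.53 and 8.80, a difference of 0.29 (SE 0.12). Smad3 separated by array at its brightest probe set, and over all probe sets it differed by 0.06. Among 12 genes that TGF-beta induces, 9 were higher and 3 lower. Col1a1, the main fibrillar collagen, was 10.01, 10.18 and 10.04 and 10.35, 10.93 and 10.49, a difference of 0.51 (SE 0.16) with no overlap. Tgfbi, an adhesion protein named for its induction by TGF-beta and also made by macrophages, was 9.78, 10.33 and 10.08 and 9.52, 9.74 and 8.65, a difference of -0.76 (SE 0.31) in the opposite direction, or -0.43 without the muscle-rich arrays. The thrombospondin Thbs1, an activator of latent TGF-beta, was 8.70, 8.80 and 9.01 and 9.24, 9.32 and 9.49, a difference of 0.51 (SE 0.31).

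Of 16 fibroblast and collagen genes 12 were higher, with Col1a1 as the 1 member at an unadjusted p under 0.05 (background 6.34%). Their median was 0.10, which was 0.01 without 1-week array 1, 0.17 without 1-week array 2, 0.20 without 4-week array 1 and -0.0046 without 4-week array 2. Matrix proteases and their inhibitors were lower in 10 of 13 members, with a median of -0.30 that was -0.57 without 1-week array 1, -0.15 without 1-week array 2, -0.10 without 1-week array 3, -0.11 without 4-week array 1, -0.46 without 4-week array 2 and -0.15 without 4-week array 3, and -0.07 without the muscle-rich arrays. The inhibitor Timp3 was 10.07, 10.46 and 10.81 and 9.85, 9.85 and 9.48, a difference of -0.72 (SE 0.29). Among insulin-like growth factor genes, with a median of 0.06, the binding protein Igfbp2 was 5.85, 7.20 and 6.68 at 1 week and 7.34, 7.93 and 8.32 at 4 weeks, a difference of 1.29 (SE 0.32). Every later gland exceeded every earlier one for Igfbp2. Igfbp6, made by fibroblasts, was 10.50, 12.21 and 11.97 and 10.84, 11.05 and 10.26, a difference of -0.85 (SE 0.37) with overlap. Timp3 differed by -0.41 and Igfbp6 by -0.41 without the muscle-rich arrays. In the EGF family, 5 of 7 genes were higher with a median of 0.41, which was 0.25 without 1-week array 2 and 0.22 without 4-week array 3. The ligand Tgfa was 6.33, 5.98 and 5.72 and 6.43, 6.38 and 6.92, 0.57 (SE 0.19) at its brightest probe set and 0.07 over all of them.

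Immediate early genes, which are switched on within minutes by growth factors or by handling of tissue, were higher in 13 of 14 members, 11 after quantile normalization and 12 after median centring. The median was 0.32, 5 had an unadjusted p under 0.05 (background 6.34%) and in 6 the times did not overlap (background 9.84%). With the lymph node markers as a covariate the median was 0.15 and 2 members had an unadjusted p under 0.05. Egr1 was 10.18, 10.32 and 10.35 at 1 week, 11.56, 11.04 and 11.55 at 4 weeks and 10.39, 11.67 and 11.06 in sham glands, a difference between times of 1.10 (SE 0.36). Egr3 was 7.65, 7.11 and 6.20 and 8.21, 8.16 and 9.12, a difference of 1.51 (SE 0.45) at its brightest probe set and 0.69 over both. The growth regulator Myc was 8.58, 8.76 and 9.05 and 9.21, 9.17 and 9.31, a difference of 0.43 (SE 0.17), and Ier2 differed by 0.42 (SE 0.16). The list mean was 8.26, 8.27 and 8.31 in the 1-week glands and 8.70, 8.69 and 8.77 in the 4-week glands. The times were far apart relative to their spread, while sham glands (8.30, 8.87 and 8.53) ranged across the gap. The sources used here do not give how long each gland was handled, and this was not tested.

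Clock and glucocorticoid genes differed in both directions. Per1, a clock gene that glucocorticoids also induce, was 7.72, 7.39 and 7.47 at 1 week, 6.51, 6.65 and 7.16 at 4 weeks and 6.53, 6.58 and 7.06 in sham glands, a difference between times of -0.75 (SE 0.22). Tsc22d3, the glucocorticoid-induced leucine zipper, was 9.66, 9.43 and 9.28, 8.53, 8.97 and 8.50 and 8.74, 8.79 and 8.31 in the same order, a difference of -0.79 (SE 0.20). In both genes the 1-week glands were above all sham and all 4-week glands. Of the other clock genes, Nr1d2 was 8.68, 8.52 and 8.22 and 9.24, 8.86 and 9.14, a difference of 0.60 (SE 0.21), and Per3 was 5.86, 5.82 and 6.01 and 6.67, 6.23 and 6.75, a difference of 0.66 (SE 0.24), both without overlap. Over all their probe sets Nr1d2 differed by 0.29 and Per3 by 0.42. Of 16 clock genes, 3 were higher (background 6.34%) and 3 lower (background 3.76%) at an unadjusted p under 0.05. The 1-week glands and sham glands, which share the 1-week time point, differed in 8 of these 16 at that p, where 4.54% of all genes did. The sources used here do not give the time of day of collection. Among other glucocorticoid-responsive genes, Cdkn1c, a cell cycle inhibitor, was 8.58, 8.27 and 8.35 and 9.05, 9.63 and 8.83, a difference of 0.77 (SE 0.22), and Pdk4, which spares glucose, 9.27, 7.86 and 8.14 and 9.05, 9.12 and 9.16, a difference of 0.69 (SE 0.30), or 1.11 without 1-week array 1. That list as a whole had 6 higher and 6 lower members.

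Cholesterol synthesis enzymes were higher in 11 of 11 tested members, also under both scalings, with a median of 0.38 that lay between 0.22 and 0.50 over the alternatives. In 7 the times did not overlap (background 9.84%) and 4 had an unadjusted p under 0.05 (background 6.34%). Fdft1, squalene synthase, was 8.58, 8.54 and 8.44 at 1 week and 9.10, 9.02 and 9.10 at 4 weeks, a difference of 0.55 (SE 0.15) at its brightest probe set and 0.10 over all. Hmgcs1, which makes HMG-CoA, was 9.52, 9.57 and 9.13 and 9.72, 9.62 and 10.39, a difference of 0.50 (SE 0.20), or 0.13 without the muscle-rich arrays. Sqle, squalene epoxidase, was 7.75, 7.93 and 7.74 and 8.31, 8.14 and 8.32, a difference of 0.45 (SE 0.20), and Msmo1, a later enzyme, differed by 0.49 (SE 0.21). The list mean of the sham glands, 8.30, 7.53 and 8.00, spanned both times. Without the muscle-rich arrays all 11 were still higher, with 1 at an unadjusted p under 0.05.

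White fat markers barely differed. Of 13 white adipocyte genes 8 were higher and 5 lower, with a median of 0.02, and Adipoq differed by 0.01 (SE 0.10). Fatty acid and triglyceride synthesis had a median of -0.06. The brown and beige fat list had a median of 0.37, with 5 of 7 members higher and 2 at an unadjusted p under 0.05 (background 6.34%). Its median was 0.02 without 4-week array 3, 0.16 without the muscle-rich arrays and 0.69 without 4-week array 1. In the brown and beige fat list, Dio2, which activates thyroid hormone, was 5.90, 5.02 and 5.07 at 1 week and 6.74, 7.11 and 6.75 at 4 weeks, a difference of 1.53 (SE 0.41) without overlap, and the coactivator Ppargc1a was 4.24, 3.90 and 3.49 and 4.44, 4.48 and 4.72, a difference of 0.67 (SE 0.26). Over all probe sets Dio2 differed by 0.87. Ppargc1a, with a mean of 4.20 over the 17 glands, lay near the level filter (4.15). Dio2 differed by 1.46 and Ppargc1a by 0.39 without the muscle-rich arrays. Egln3, an oxygen sensor induced by hypoxia, was 7.06, 7.03 and 7.16 and 7.79, 7.57 and 7.99, a difference of 0.70 (SE 0.19), while the hypoxia and glycolysis list had a median of -0.05. Skeletal muscle markers were higher in 15 of 15 members with a median of 0.92, which was 0.14 without 1-week array 1, 0.14 without 1-week array 2, 2.76 without 1-week array 3, 2.34 without 4-week array 1 and -0.36 without 4-week array 3. Acta1, skeletal actin, was 5.79, 5.91 and 12.11 at 1 week and 4.51, 9.92 and 11.87 at 4 weeks, and both times held low and high glands.

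Other lists had medians of -0.14 to 0.10, against 0.04 for all genes. These were Wnt and R-spondin (0.05), the respiratory chain (0.03), heat shock and unfolded protein (0.02), NRF2 and heme oxygenase (0.10), blood endothelium (0.08), Schwann cells (0.09), lymphatic endothelium (-0.14) and keratinocytes (-0.10). The 4 lymphatic members ran from -1.35 to 0.99. Of them 1 was higher (background 6.34%) and 1 lower (background 3.76%) at an unadjusted p under 0.05. Plasma cells had -0.30, which was -0.02 without 1-week array 1 and -0.07 without 4-week array 3, and the 1 tested erythroid gene had 0.29. Within the heat shock list the cochaperone Dnajb1 was 9.23, 9.43 and 9.34 at 1 week and 8.92, 9.08 and 8.78 at 4 weeks, a difference of -0.40 (SE 0.12) without overlap.

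**Figure D4:**
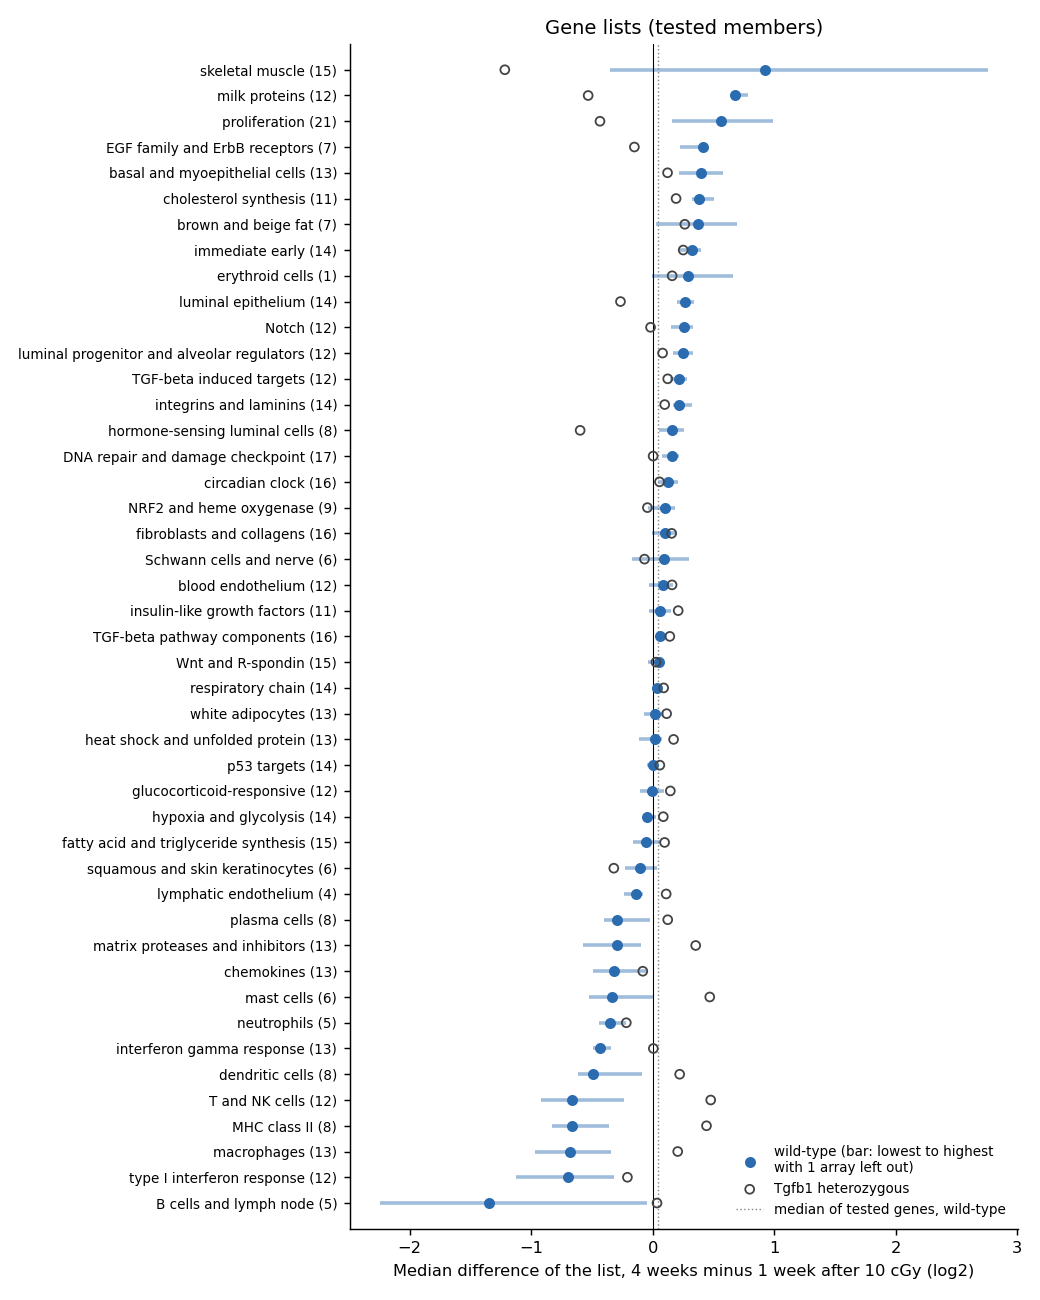
Median difference between 4 weeks and 1 week after 10 cGy (log2) for each of 45 gene lists, with tested members in parentheses. Filled points are wild-type glands, with bars from the lowest to the highest median when 1 of the 6 arrays is left out, open circles are Tgfb1 heterozygous glands, and the dotted line is the median of all tested genes in wild-type glands. Immune lists lie on the negative side, and skeletal muscle, milk protein, cell cycle, basal and cholesterol lists on the positive side.

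Sham glands place these values. The following contrasts share the irradiated arrays with the contrast of times, so they are only set side by side. At 1 week, 0 genes passed against sham (limma, smallest adjusted p 0.541) and 588 had an unadjusted p under 0.05 (4.54%), under the 647 that chance gives. At 4 weeks, 0 passed (smallest adjusted p 1.00) and 296 did (2.29%). Cdkn1a differed from sham by 0.50 at 1 week and -0.21 at 4 weeks, and Igtp by 0.54 and -0.29. Those 2 genes stood apart from sham at 1 week. Jag2 differed by -0.32 and 0.42, Col4a1 by -0.19 and 0.33, and Capn6 by -0.29 and 0.95, on both sides of sham. The median of the interferon gamma list was 0.33 at 1 week and -0.13 at 4 weeks against sham, and that of MHC class II 0.58 and -0.14. The macrophage medians were 0.53 and -0.17, and the cholesterol medians -0.24 and 0.09.

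Heterozygous littermates give the same contrast in other animals. Tgfb1 was 3.85 and 3.81 in their 1-week glands and 4.30, 4.65 and 4.31 in their 4-week glands. The 1-week values lay below all wild-type 1-week glands. Of the 4-week values, that of 4.65 lay above the lowest wild-type 4-week gland, and the others lay below all of them. The Tgfb1 probe set was dim, with a mean of 4.69 over the 17 glands. Both heterozygous 1-week values lay under the level filter (4.15), where differences in level are poorly measured. In heterozygotes 0 genes passed between 4 weeks and 1 week (limma, smallest adjusted p 0.0572) and 1410 had an unadjusted p under 0.05 (10.9%). That 0 became 2 with no filter, 1 with a 60th percentile filter, and 46 without heterozygous 1-week array 1. The difference of the 2 time contrasts, heterozygous minus wild-type, was tested directly, and 0 genes passed (limma, smallest adjusted p 0.389) with 670 at an unadjusted p under 0.05 (5.18%). The 10 wild-type genes named as higher were higher in heterozygotes in 8 cases, with a median of 0.33. Of the 10 named as lower, 2 were lower and 8 higher in heterozygotes, with a median of 0.11. These genes were chosen for their wild-type difference, so a smaller one in heterozygotes is not evidence about genotype.

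Single genes in heterozygotes ranged from like to opposite. Klf11 was higher at 4 weeks in both genotypes, by 0.70 in wild-type and 0.57 in heterozygotes, and Tox3 by 1.18 and 0.85. Jag2 differed by -0.11 and Hes1 by -0.08 in heterozygotes, and the difference between genotypes had an unadjusted limma p of 5.14e-04 for Jag2 and 0.0093 for Hes1. Both genes were chosen by their wild-type difference, which is part of this test, so the choice itself favours a small p. Of the 10 genes named as higher in wild-type 5 had such a p under 0.05, as did 10 of the 10 named as lower (background 5.18%). They too were chosen by their wild-type difference, so these counts were favoured in advance and are not evidence about genotype. In either set 0 passed the adjusted threshold. Cdkn1a was 8.12 and 7.63 at 1 week and 8.03, 7.96 and 7.89 at 4 weeks in heterozygotes, none of them at the level of the wild-type 1-week glands. Depp1, a FOXO-induced regulator of autophagy, was 8.45, 8.11 and 8.29 at 1 week and 7.31, 6.98 and 7.17 at 4 weeks in wild-type but 7.64 and 7.17 and 8.72, 8.96 and 8.18 in heterozygotes. Tsc22d3 likewise differed by -0.79 in wild-type and 0.87 in heterozygotes. Depp1 and Tsc22d3 had the smallest p of all genes for the difference between genotypes, 5.39e-05 and 6.01e-05, with an adjusted p of 0.389 (limma).

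**Figure D5:**
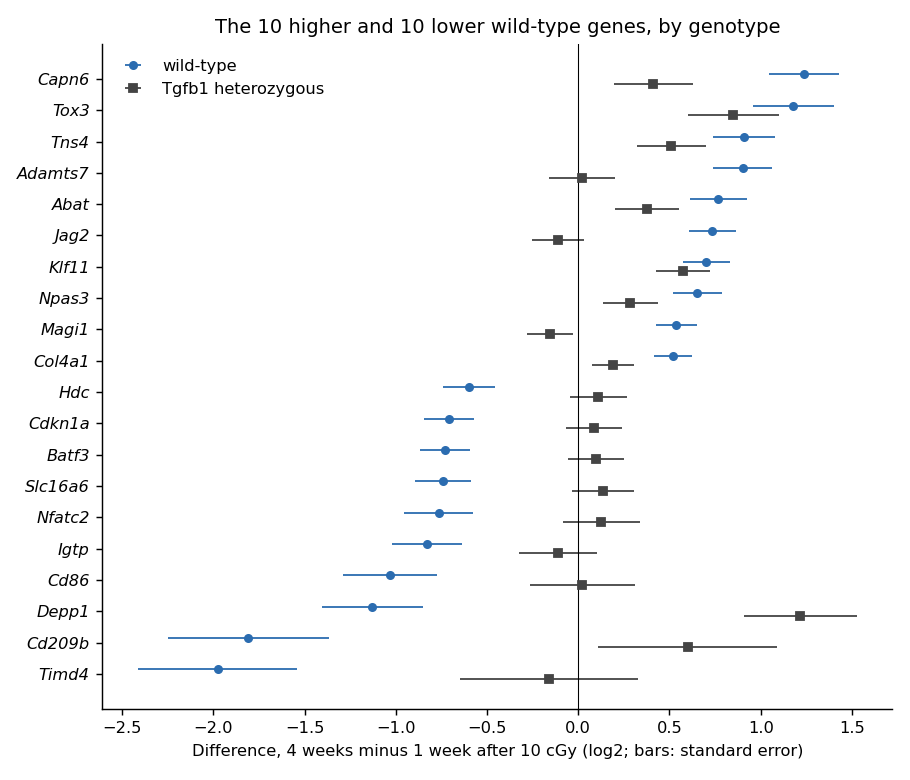
Difference between 4 weeks and 1 week after 10 cGy (log2, x axis) of the 10 higher and 10 lower wild-type genes in wild-type glands (blue circles) and Tgfb1 heterozygous glands (dark squares), with standard errors from limma. Depp1 lies at -1.13 in wild-type and 1.22 in heterozygotes, and Klf11 and Tox3 lie to the right in both.

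Several lists had medians of opposite sign in the 2 genotypes. MHC class II was -0.67 in wild-type and 0.44 in heterozygotes, macrophages -0.68 and 0.20, and T and NK cells -0.66 and 0.48. Without 1-week array 1 the wild-type medians were -0.36 for MHC class II and -0.23 for T and NK cells. That of macrophages was -0.94 without this array and -0.34 without 4-week array 3. Luminal epithelium was 0.26 in wild-type and -0.27 in heterozygotes, milk proteins 0.67 and -0.53, and proliferation 0.56 and -0.43. For proliferation 0 members had an unadjusted p under 0.05 in either genotype, and the wild-type median was 0.16 without 1-week array 1. The heterozygous means of that list were 8.46 and 8.33 at 1 week and 7.13, 8.57 and 8.37 at 4 weeks. The interferon gamma list was -0.44 in wild-type and 0.00 in heterozygotes. By contrast, cholesterol synthesis was 0.38 and 0.19, and immediate early genes 0.32 and 0.25. For MHC class II, 4 of 8 members had an unadjusted p under 0.05 for the difference between genotypes (background 5.18%), and for the interferon gamma list 3 of 13. These counts come from the fit to all 17 glands, with wild-type 1-week array 1 included. Of the 2 heterozygous 1-week glands, array 2 had Csn2 at 13.19 against 8.84 in array 1, so that group rests on glands that differ in their milk genes.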

How the data were processed

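Each gland's RNA was read on 1 Affymetrix array. The values that the authors deposited for glands are linear intensity, whereas tumours were deposited as log2 and were set aside. RMA, which removes background, brings arrays to a common scale and combines the probes of each probe set, is named in the submitters' processing notes, per the labels, without a version. Of 45101 probe sets, 34958 had 1 gene in the platform annotation, 932 several and 9211 none, and only the first were used. Array medians were 29.08 to 30.56 in deposited intensity. After conversion to log2, 1 probe set stood for each of 18194 genes, the brightest on average across the 17 glands, and genes under the 40th percentile of all probe sets (4.15) were set aside, leaving 12945. The number of arrays limits the precision.

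A linear model was fitted with limma 3.58.1 under R 4.3.3 (6 group means, 11 residual degrees of freedom, empirical Bayes with a trend), two-sided, with Benjamini-Hochberg adjustment and a threshold of 0.05. The script was tested on simulated data. Expression was also summarised over 45 lists, 20 of cell types and 25 of pathways. The arrays compared, the genes and the lists were chosen with earlier results of these data known. Named genes are the 10 higher and 10 lower with the smallest p among those that did not overlap, up to 4 of the smallest p per list, and a set of 16 markers. Alternatives were other sample sets, filters, scalings, probe set means, variance models, covariates for muscle and lymph node markers, a replicate block and leaving out arrays. Leaving out the 3 lymph-node-rich or the 4 muscle-rich glands, or single sham or heterozygous arrays, was added after seeing the data. Promoters came from a RefSeq table of GRCm38.p6.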

Additional observations from a re-analysis of the deposited data

How the results depend on the processing

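No gene passed the adjusted threshold in wild-type glands under any alternative other than the replicate block, under which 1 did, Timd4 at -1.98 (limma adjusted p 0.0122), and 1413 had an unadjusted p under 0.05. The labels do not call same-numbered glands pairs, and with 3 of each time the values cannot settle whether they are. Same-numbered glands of the 2 times correlated at 0.18, 0.03 and 0.09 in their deviations from group means. Glands of different number correlated at -0.15 to 0.04, and 1-week array 2 correlated best with another number (0.04). The count at an unadjusted p under 0.05 was 1308 and ran from 598 to 1550 with 1 array left out, and was 570 without the muscle-rich arrays. The range is set by 4-week array 3 (598) and 4-week array 2 (1550).

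In heterozygotes the number of genes passing between times was 0, but 2 with no filter, 1 with the 60th percentile filter, 1 without the muscle-rich arrays, and 0 to 46 with 1 array left out, the highest without heterozygous 1-week array 1. The difference between genotypes had 0 to 5 genes with 1 array left out, again highest without that array. The contrast of 1 week with sham had 1 without the lymph-node-rich arrays. The cause was not tested.

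Of the genes named, 5 turned in sign. With 1 of the 6 arrays left out, Acta1 ran from -0.72 to 2.95, Adipoq from -0.034 to 0.087, Esr1 from -0.0086 to 0.20 and Pgr from -0.14 to 0.10. Acta1 was -0.44 with the muscle covariate and -0.25 without the lymph-node-rich arrays, Adipoq was -0.0022 with median centring and -0.018 without the muscle-rich arrays, and Tap1 was 0.015 with the mean of probe sets. With 3 arrays a time, differences near the SE could not be told from 0.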
